A study of Arabidopsis thaliana with 18 samples.

Results

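VSP1, VSP2, MYC2, TAT3, CORI3, CLH1, ARGAH2 and JR1 are genes that jasmonate is known to raise in Arabidopsis thaliana through the transcription factor MYC2 and its relatives. They were picked by gene identifier, with no measured value in the rule, and are 8 of the 37686 genes listed for each library. The choice was made with earlier results of these data known. Every one of the 8 passed the filter on low counts. The material was polyadenylated RNA of Col-0, the common wild-type laboratory line, taken from the first pair of rosette leaves and read on an Illumina instrument, and no group carries a mutation or transgene in its labels. Seedlings were 9, 12 or 15 days old and had grown in constant light on agar medium with sucrose. At each age leaves were taken either at detachment, called uncultured here, or after the detached leaf had spent 1 day on sucrose-free medium in constant light, called cultured. This gives 6 groups of 3 libraries, 18 in all, and the labels name no hormone treatment for any of them. The comparisons ask what 1 day of culture after detachment changes in a leaf, and whether that change differs between seedling ages.

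Jasmonate is a lipid-derived hormone that plants make when they are wounded or chewed. Its active form, jasmonoyl-isoleucine, binds the receptor COI1 together with JAZ proteins, the JAZ repressors are destroyed, and MYC2 and related factors are set free to switch on their targets. In leaves this MYC branch is known for storage and defence proteins, while another branch, which also needs ethylene, acts through the factors ERF1 and ORA59 and switches on defensins. The branches are known to restrain each other.

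Levels are in TPM, the deposited measure of transcript abundance that corrects for gene length and depth. Each library held between 29664089 and 51126114 expected counts, the authors' estimate of reads per gene. The leaf label was borne out by its markers, since the gene of the small subunit of Rubisco, RBCS1A, stood at 10332 to 47785 TPM. Markers of the shoot meristem (STM and CLV3) stayed at or below 0.27 TPM and those of flowers (AP1, AP3, PI and AG) at or below 0.97 TPM in every library. Some libraries stood apart within their groups. The genes of a list of 11 touch and early stress responses had a median deviation from their group mean of -3.19 on the log2 scale in uncultured replicate 1 at 12 days, against 1.76 and 1.64 in replicates 2 and 3. Uncultured replicate 2 at 15 days had the lowest median deviation of the 8 genes, -0.77, and a touch deviation of 1.63. In uncultured replicate 3 at 15 days the touch deviation was -2.20. Some alternatives leave out uncultured replicate 2 of 12 and 15 days together. Deviations of all tested genes from their group means correlated at r = 0.683 between these libraries, and no label singles them out. Results that rest on a single library are given with and without it. Nothing in the labels says that replicates came from separate plants or cultures, so a p-value here covers no more than the spread among these libraries. The series' design text speaks of duplicates, whereas the labels number 3 replicates, and all 3 were used. In bulk leaf RNA, fewer cells of a type and less RNA per cell cannot be told apart.

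The 8 genes lie on all of the nuclear chromosomes of the TAIR10.1 assembly, and all are annotated as protein coding. VSP1 (AT5G24780, chr5:8507590-8509201, minus strand) and VSP2 (AT5G24770, chr5:8500468-8502224, minus strand) encode the vegetative storage proteins and lie 5365 bases apart. MYC2 (AT1G32640, chr1:11798119-11801407, minus strand) encodes the basic helix-loop-helix factor itself. TAT3 (AT2G24850, chr2:10582074-10585216, minus strand) encodes a tyrosine aminotransferase. CORI3 (AT4G23600, chr4:12310379-12313212, plus strand) encodes a cystine lyase induced by coronatine, a bacterial mimic of jasmonoyl-isoleucine. CLH1 (AT1G19670, chr1:6803486-6805092, minus strand) encodes a chlorophyllase. ARGAH2 (AT4G08870, chr4:5646395-5648868, minus strand) encodes an arginase, which splits arginine into ornithine and urea. JR1 (AT3G16470, chr3:5595282-5599224, minus strand) encodes a jacalin-related lectin.

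MYC2 is known to bind the G-box CACGTG and variants of it, so the 1000 bases before each annotated gene start were searched on both strands. CACGTG was in 0 of the 8 windows, against 14.8% of the windows of 27443 protein-coding genes. The variant CACATG, read as CATGTG on the other strand, was searched apart from the G-box, no stretch can match both in full, and it was in 3 of the 8 windows, against 37.7% of all. These 3 sites are shown because they are the only matches to either motif among the 8 genes, and they sit before a gene that did not pass the culture test at any age (MYC2), a gene with very large changes (TAT3) and a gene with small ones (CLH1). Each line gives 60 bases 5′ to 3′ on the strand of the gene, from the RefSeq TAIR10.1 sequence, with the motif in capitals.
MYC2 chr1:11801745-11801804, minus strand: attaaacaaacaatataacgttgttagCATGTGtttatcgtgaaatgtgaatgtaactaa
TAT3 chr2:10585295-10585354, minus strand: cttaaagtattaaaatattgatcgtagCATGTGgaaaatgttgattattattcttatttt
CLH1 chr1:6805115-6805174, minus strand: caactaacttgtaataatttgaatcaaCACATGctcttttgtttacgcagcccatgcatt
The motif begins 370 bases before the start of MYC2, 111 before that of TAT3 and 55 before that of CLH1. A match describes letters only, and none of the other 5 windows held either motif, VSP1 and VSP2 included. Windows lie before the outermost annotated start of a gene, so bases before transcripts that start inside it were not searched. The JR1 transcript AT3G16470.1, for example, starts at base 5598044 on the minus strand, while the gene starts at 5599224.

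After 1 day of culture more of the genes were called higher at each older age. At 9 days TAT3, CORI3 and ARGAH2 were called higher, 3 of 8 genes, where 5.82% of the 20952 genes tested were higher. At 12 days VSP1, VSP2, TAT3, CORI3 and ARGAH2 were called higher, 5 of 8, against 10.4% of all tested genes. At 15 days 7 of 8 were higher, all but MYC2, against 21.1% of all. None of the 8 was called lower by edgeR at any age, also at an unadjusted p under 0.05, where 3.72%, 9.33% and 20.8% of tested genes were called lower at 9, 12 and 15 days. DESeq2 called the same numbers of the 8 higher and none lower. For DESeq2 and for an unadjusted p the shares over all genes are not given, here or below. The median log2 fold change over the 8 was 0.48, 2.04 and 3.12 at 9, 12 and 15 days, while the median over all tested genes was -0.01, -0.03 and -0.07. A call means a Benjamini-Hochberg adjusted p under 0.05 over all tested genes in edgeR's quasi-likelihood test, the source of every adjusted p given for a log2 fold change. Counts scaled to library size (CPM) did not overlap between cultured and uncultured libraries for 3, 5 and 7 of the 8 genes, where 34.8%, 36% and 48.6% of tested genes did not. The 9-day count moved most with single libraries: it was 0 without uncultured replicate 1, and 1 without uncultured replicate 2 or 3 or cultured replicate 3. At 12 days it was 2 without replicate 3 of either group and 3 without replicate 2 of either group. With replicate number as a block the 9-day count was 2, without TAT3. With replicate 3 left out of every group the counts were 0, 3 and 6 at 9, 12 and 15 days.

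**Figure D1:**
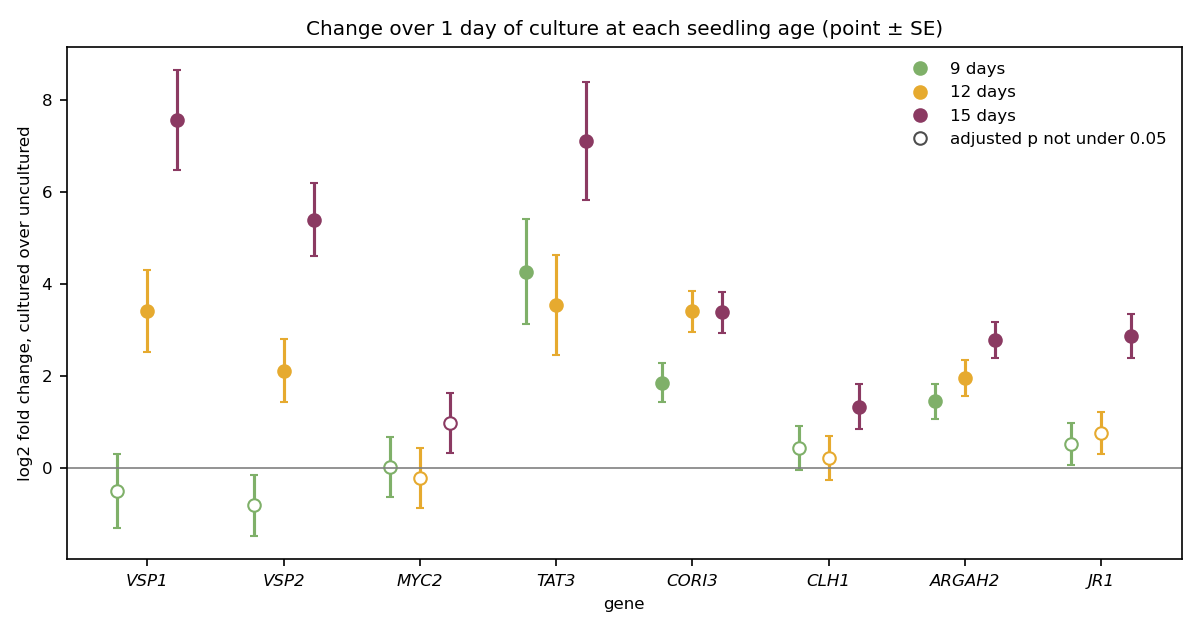
Log2 fold change of cultured over uncultured leaves (vertical axis) for each of the 8 genes, as the estimate with its standard error, at 9, 12 and 15 days, with open points where the adjusted p was not under 0.05. VSP1 and VSP2 go from -0.50 and -0.81 at 9 days to 7.56 and 5.39 at 15 days, and MYC2 stays between -0.22 and 0.98.

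Summed levels of cell type markers differed between groups too. The summed level of the 4 mesophyll markers was 37407 to 42372 TPM in cultured and 44849 to 62344 TPM in uncultured leaves at 9 days, 24044 to 28273 against 48666 to 57183 TPM at 12 days and 18627 to 19939 against 19900 to 39692 TPM at 15 days. Cultured leaves were thus wholly lower at 9 and 12 days, and the ranges touched at 15 days. At 15 days the myrosin cell markers TGG1 and TGG2 summed to 970 to 1103 TPM in cultured and 1916 to 2402 TPM in uncultured leaves. Epidermis markers (ATML1 and FDH) summed to 69.8 to 86.1 against 96.5 to 101 TPM, guard cell markers (KAT1, MYB60 and FAMA) to 22.4 to 38.2 against 23.8 to 52.2 TPM and phloem markers (SUC2 and APL) to 74.5 to 100.3 against 91.1 to 147 TPM. At that age the epidermis sums were thus lower in cultured leaves, and the guard cell and phloem sums overlapped. The 3 root markers summed to 45.3 to 56.3 TPM in cultured and 1.46 to 4.97 TPM in uncultured leaves of that age. Of these, PYK10 reached 56.3 TPM, while CASP1 never passed 0.93 and TIP2;3 never passed 0.19 TPM. At 9 days the root markers summed to 31.2 to 36.1 TPM before and 12.9 to 34.4 TPM after culture. The part of these shifts in the results on the 8 genes was not tested.

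VSP1 and VSP2, whose proteins store nitrogen in leaves and belong to the acid phosphatase family, had the widest ranges of the set together with TAT3. VSP1 stood at 44.3, 51.4 and 43.3 TPM in uncultured replicates 1, 2 and 3 at 9 days, at 29.0, 2.03 and 11.9 TPM at 12 days and at 4.19, 2.35 and 3.79 TPM at 15 days. In cultured leaves it stood at 16.5, 21.2 and 76.5 TPM at 9 days, at 45.9, 167 and 389 TPM at 12 days and at 1080.4, 263 and 993 TPM at 15 days. So uncultured leaves were highest at the youngest age and cultured leaves at the oldest. The groups overlapped at 9 days, where 2 cultured libraries were below all uncultured ones and the third above, and did not overlap at 12 or 15 days. With culture the log2 fold change was -0.50 ± 0.81 (SE) at 9 days (adjusted p = 0.787), 3.41 ± 0.89 at 12 days (0.0138) and 7.56 ± 1.08 at 15 days (0.000101). The 12-day call was lost without cultured replicate 3 (2.60, adjusted p = 0.0648) and without uncultured replicate 3 (3.27, adjusted p = 0.0525), and with only the groups compared in the fit (3.41, adjusted p = 0.0794).

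VSP2 was the higher of the pair in every library. It stood at 314, 329 and 294 TPM in uncultured leaves at 9 days, at 276, 19.9 and 50.2 TPM at 12 days and at 39.9, 26.9 and 18.2 TPM at 15 days. Cultured leaves held 151, 144 and 319 TPM at 9 days, 576, 586 and 747 TPM at 12 days and 1388, 755 and 1943 TPM at 15 days. At 12 days uncultured replicate 1 stayed near the 9-day level while replicates 2 and 3 were near the 15-day level. The groups overlapped at 9 days only. The log2 fold change with culture was -0.81 ± 0.66 at 9 days (adjusted p = 0.520), 2.11 ± 0.69 at 12 days (0.0419) and 5.39 ± 0.80 at 15 days (0.000128). The 12-day call was lost without any one of 5 of the 6 libraries compared, with adjusted p from 0.0668 to 0.129. Without the sixth, uncultured replicate 1, the value was 3.898 (adjusted p = 0.000352). It was also lost without both uncultured replicate 2 libraries of 12 and 15 days (1.61, adjusted p = 0.0759). With only the groups compared in the fit it was lost too (2.11, adjusted p = 0.165). The 15-day calls of both genes held in each alternative tried.

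**Figure D2:**
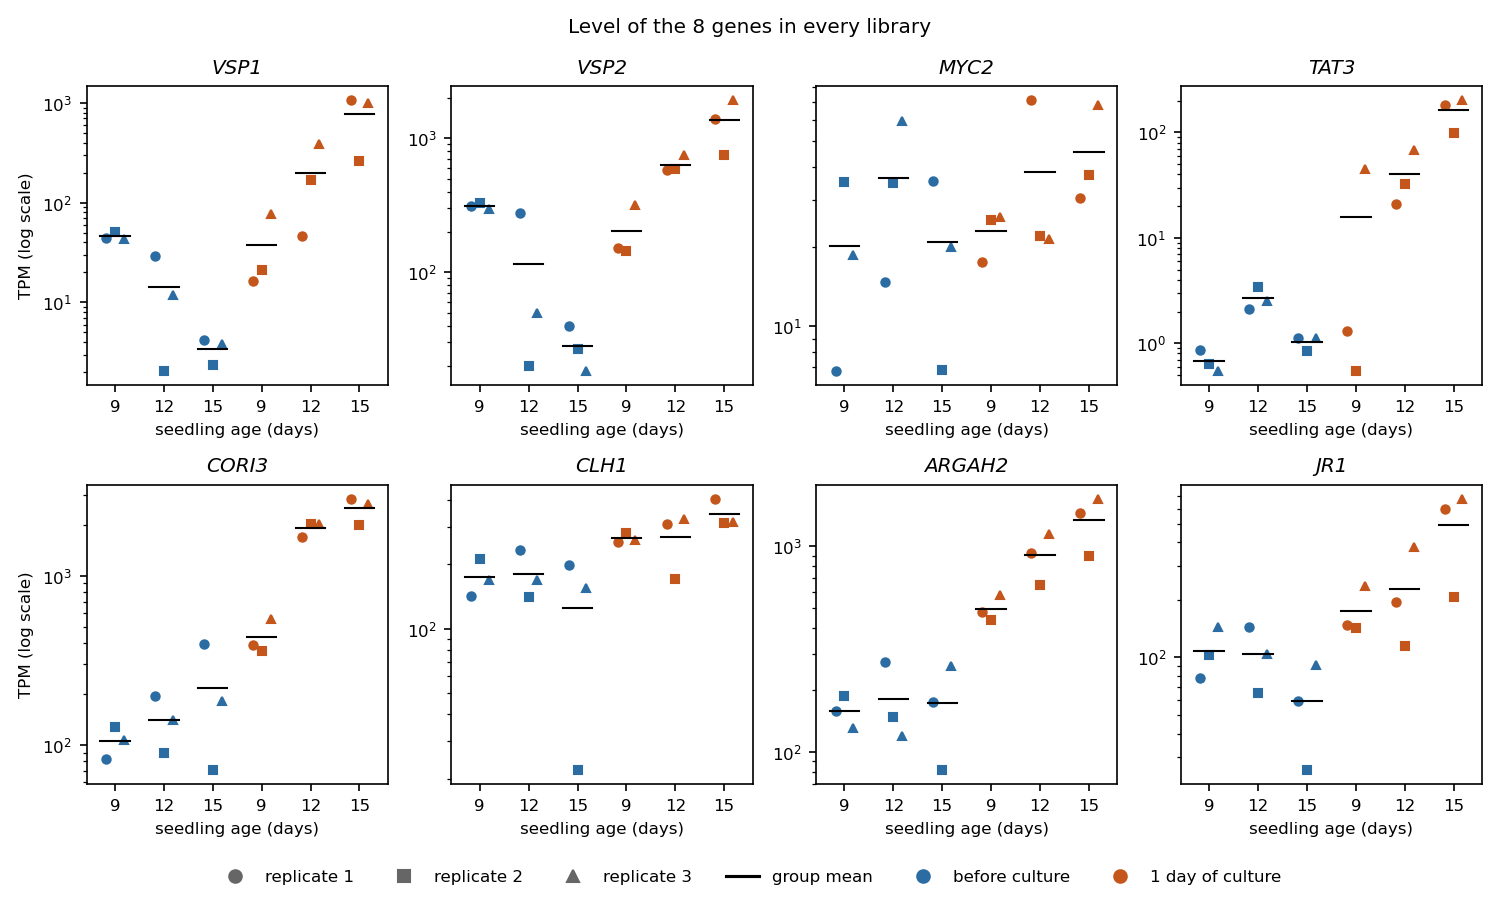
Level of each gene in TPM (vertical axis, log scale, 1 panel a gene) in every library by seedling age in days, uncultured in blue and cultured in orange, with symbols for the replicates and a bar at the group mean. The VSP1 and VSP2 panels fall with age before culture and climb with age after it. At 15 days VSP1 averaged 3.44 TPM in uncultured and 779 TPM in cultured leaves, and the MYC2 groups overlap at each age.

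With age alone, before culture, VSP1 and VSP2 were the only genes of the set called in 15 against 9 days, both lower, 2 of 8 where 22% of tested genes were lower. None of the 8 was higher there, where 23.2% of all were. The log2 fold change with age was -3.82 ± 0.91 for VSP1 (adjusted p = 0.00363) and -3.55 ± 0.73 for VSP2 (adjusted p = 0.00130), and CPM did not overlap between the 2 ages for these and JR1, 3 of 8 genes where 48.2% of tested genes did not. CORI3 was at 0.89 ± 0.41 (adjusted p = 0.0865) and was called higher without uncultured replicate 2 at 15 days (1.28, adjusted p = 0.00781). From 9 to 12 days 0 of the 8 genes were called in edgeR, against 7.44% of tested genes in either direction, with 0 at an unadjusted p under 0.05 and 0 in DESeq2. With uncultured replicate 1 at 12 days left out, VSP2 alone was called there (-3.11, adjusted p = 0.00361). From 12 to 15 days VSP2 alone was called, lower by -2.23 ± 0.69 (adjusted p = 0.0431), 1 of 8 where 9.3% of tested genes were lower. That value was -0.45 (adjusted p = 0.583) without the same library, and it missed the threshold without any one of the 15-day libraries as well (adjusted p from 0.0621 to 0.104). With replicate number as a block VSP2 missed the threshold there (-1.93, adjusted p = 0.0653) and JR1 passed it (-1.13, adjusted p = 0.0307). DESeq2 called VSP1 too (-2.25, adjusted p = 0.0252).

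After culture the older leaves held the higher levels. In 15 against 9 days 6 of 8 genes were higher, where 10.8% of tested genes were. VSP1 was at 4.23 ± 0.92 (adjusted p = 0.00446), VSP2 at 2.65 ± 0.70 (0.0133), TAT3 at 3.33 ± 1.06 (0.0336), CORI3 at 2.42 ± 0.43 (0.00119), ARGAH2 at 1.32 ± 0.38 (0.0203) and JR1 at 1.37 ± 0.46 (0.0427). MYC2 was at 0.87 ± 0.66 (adjusted p = 0.366) and CLH1 at 0.28 ± 0.48 (adjusted p = 0.721). Leaving out any one library left between 2 and 6 genes called: 2 without cultured replicate 1 or cultured replicate 2 at 9 days, and 3 without cultured replicate 1 or cultured replicate 3 at 15 days. Without cultured replicate 3 at 9 days TAT3 was at 7.31 (adjusted p = 1.75e-05). From 9 to 12 days CORI3 alone was called, higher by 2.08 ± 0.42 (adjusted p = 0.0116), 1 of 8 where 1.97% of tested genes were higher. It missed the threshold without cultured replicate 1 or 2 at 9 days (adjusted p = 0.0524 and 0.0669) or cultured replicate 2 at 12 days (0.0501), and without cultured replicate 3 at 9 days TAT3 was called as well (5.34, adjusted p = 0.000674). From 12 to 15 days edgeR called 0 of 8, where it called 0.196% of all tested genes in either direction. At an unadjusted p under 0.05, for which no share over all genes is given, the count was 2, and DESeq2 called 0.

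The difference between ages in the response to culture was tested as an interaction. Between 15 and 9 days it was called for VSP1, VSP2 and JR1, 3 of 8 genes, all with the larger response at 15 days, where 11% of tested genes were higher. VSP1 responded by 8.05 ± 1.298 more on the log2 scale (adjusted p = 0.000919), VSP2 by 6.20 ± 1.01 (adjusted p = 0.00100) and JR1 by 2.35 ± 0.65 (adjusted p = 0.0202). The JR1 call was lost without cultured replicate 1 at 9 days (adjusted p = 0.0524) or at 15 days (adjusted p = 0.0534). CORI3, at 1.53 ± 0.58, and ARGAH2, at 1.33 ± 0.53, missed the threshold with adjusted p of 0.0720 and 0.0874. Each passed it without a library of uncultured 15-day leaves: CORI3 without replicate 1 (2.23, adjusted p = 0.00542) and ARGAH2 without replicate 3 (1.73, adjusted p = 0.0329). Between 12 and 9 days 0 of 8 were called in edgeR, against 0.0525% of tested genes, with 3 at an unadjusted p under 0.05, and DESeq2 called VSP1 (adjusted p = 0.0259). Without uncultured replicate 1 at 12 days edgeR called VSP2 there (4.71, adjusted p = 0.0232). Between 15 and 12 days edgeR again called 0 of 8, against 2.78% of tested genes, while 4 had an unadjusted p under 0.05 and DESeq2 called 3. The 0.0525% and 2.78% are shares under edgeR's adjusted p and do not apply to the counts by those other rules. VSP1 was at 4.14 ± 1.2 (adjusted p = 0.0789), VSP2 was at 3.28 ± 0.96 (0.0810) and JR1 was at 2.11 ± 0.65 (0.0972). Those of VSP1 and VSP2 passed the threshold without uncultured replicate 2 at 12 days (4.64, adjusted p = 0.0216, and 3.77, adjusted p = 0.0136).

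The balance between the 2 storage protein genes also moved. VSP2 exceeded VSP1 in TPM by 7.08, 6.40 and 6.80 times in uncultured replicates 1, 2 and 3 at 9 days, by 9.52, 9.82 and 4.21 times at 12 days and by 9.51, 11.5 and 4.81 times at 15 days. In cultured leaves the ratio was 9.16, 6.79 and 4.17 at 9 days, 12.5, 3.51 and 1.92 at 12 days and 1.28, 2.87 and 1.96 at 15 days. All 3 cultured libraries of 15 days were thus below every uncultured library of any age, and the 12-day cultured libraries spanned nearly the whole range. VSP1 and VSP2 are close relatives, but their expected counts were whole numbers in 18 of 18 libraries, so no read was shared between genes in fractions. Summed into 1 gene they gave log2 fold changes with culture of -0.77 at 9 days, 2.30 at 12 days (adjusted p = 0.0311) and 5.80 at 15 days (adjusted p = 9.56e-05).

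MYC2, the factor that gives the branch its name, did not pass the culture test at any age. It stood at 6.76, 35.0 and 18.6 TPM in uncultured leaves at 9 days, at 14.7, 34.6 and 59.5 TPM at 12 days and at 35.3, 6.85 and 19.99 TPM at 15 days. Cultured leaves held 17.5, 25.3 and 26.0 TPM at 9 days, 71.6, 22.0 and 21.4 TPM at 12 days and 30.6, 37.2 and 68.4 TPM at 15 days. Cultured and uncultured libraries overlapped at every age, and within 5 of the 6 groups the highest replicate was over 2 times the lowest. Its log2 fold change with culture was 0.02 at 9 days (95% interval -1.37 to 1.41, adjusted p = 0.994), -0.22 at 12 days (-1.61 to 1.17, adjusted p = 0.849) and 0.98 at 15 days (-0.42 to 2.38, adjusted p = 0.248). These intervals still hold changes of over 2 times in either direction at 9 and 12 days and a rise at 15 days.

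MYC2 shares 3241 bases of its locus with AT1G32630, annotated on the plus strand at chr1:11797330-11801359. Whether counting used the strand is not stated, and the expected counts of MYC2 were whole in 0 of 18 libraries. In each library the fractions of both genes complement to a whole number, as with 676.99 and 923.01 in uncultured replicate 1 at 9 days. Reads were thus split between these opposite-strand genes, as happens when strand is not used, and reads of the 2 genes cannot be told apart with certainty. Over the 18 libraries AT1G32630 was the gene whose log2 CPM were most like those of MYC2 (Pearson r = 0.938). Split reads enter both values, so this likeness is not that of 2 separate measurements. The TPM of MYC2 was 0.452 to 1.65 times that of AT1G32630, with a median of 1.1999. With the counts of both summed, the log2 fold changes with culture were 0.03, -0.25 and 0.77 at 9, 12 and 15 days and none was called, an alternative chosen after seeing the data.

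**Figure D3:**
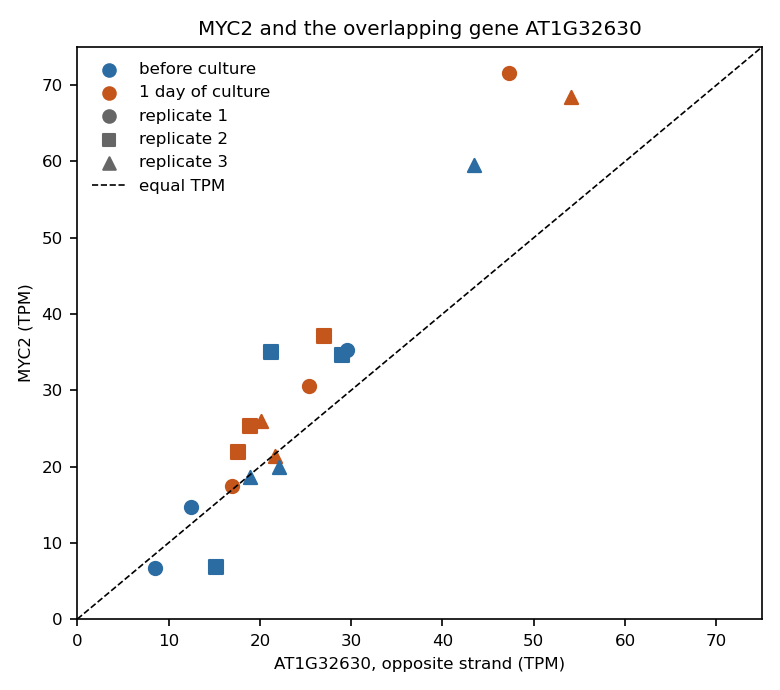
MYC2 (vertical axis) against the opposite-strand gene AT1G32630 (horizontal axis), both in TPM on linear scales, in the 18 libraries, with colour for culture, symbol for replicate and a dashed line where both are equal. The 2 values climb together, with ratios between 0.452 and 1.65, and blue and orange points are mixed along the line. Reads were split between the 2 genes, so the values are not independent.

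TAT3, whose enzyme moves the amino group of tyrosine, was nearly silent in uncultured leaves. It stood at 0.87, 0.64 and 0.54 TPM at 9 days, at 2.11, 3.45 and 2.54 TPM at 12 days and at 1.12, 0.84 and 1.12 TPM at 15 days. In cultured leaves it stood at 1.3, 0.54 and 45.2 TPM at 9 days, at 21.0, 32.2 and 68.1 TPM at 12 days and at 182, 99.2 and 205 TPM at 15 days. The groups did not overlap at 12 and 15 days, where the log2 fold change was 3.54 ± 1.08 (adjusted p = 0.0313) and 7.10 ± 1.28 (adjusted p = 0.000571). At 9 days it was 4.26 ± 1.14 (adjusted p = 0.0281), but 1 library carried this. Without cultured replicate 3 the value was 0.29 (adjusted p = 0.808), and the other 2 cultured libraries lay within or near the uncultured range. It was also lost without any one of the uncultured libraries (adjusted p from 0.0815 to 0.1004), with replicate number as a block (3.46, adjusted p = 0.0741) and with a term for replicate 3 (adjusted p = 0.0640). The difference in response between 15 and 9 days was 2.83 ± 1.46 (adjusted p = 0.179) with that library and 6.81 (adjusted p = 0.000233) without it. The 12-day call was lost without any one of 5 of the 6 libraries compared, all but cultured replicate 1, with adjusted p from 0.0559 to 0.0952.

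CORI3, whose enzyme cleaves cystine, rose at each age. It stood at 82.6, 128 and 106 TPM in uncultured leaves at 9 days, at 193, 89.9 and 140 TPM at 12 days and at 394, 70.5 and 183 TPM at 15 days. Cultured leaves held 391, 357 and 554 TPM at 9 days, 1681, 2011 and 2028 TPM at 12 days and 2850, 1993 and 2657 TPM at 15 days. Cultured libraries were above uncultured ones of the same age throughout, and the 12- and 15-day cultured groups overlapped with each other. On the log2 scale the change was 1.85 ± 0.42 at 9 days (adjusted p = 0.0112), 3.41 ± 0.44 at 12 days (0.000117) and 3.38 ± 0.44 at 15 days (5.24e-05). The 9-day call was lost without uncultured replicate 1 (1.74, adjusted p = 0.0627) and without replicate 3 in every group (1.54, adjusted p = 0.221).

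ARGAH2, the arginase, rose at each age. It stood at 158, 186 and 131 TPM in uncultured leaves at 9 days, at 275, 148 and 120 TPM at 12 days and at 174, 81.3 and 263 TPM at 15 days. Cultured leaves held 479, 437 and 577 TPM at 9 days, 924, 650 and 1142 TPM at 12 days and 1444, 896 and 1706 TPM at 15 days. No cultured library was below any uncultured one, whatever the age. With culture the log2 fold change was 1.45 ± 0.38 at 9 days (adjusted p = 0.0255), 1.96 ± 0.39 at 12 days (0.00241) and 2.78 ± 0.40 at 15 days (0.000103). The 9-day value stayed between 1.23 and 1.63 when any one of the 6 libraries compared was left out but then missed the threshold each time, with adjusted p from 0.0543 to 0.0973.

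JR1, the lectin, was called at 15 days only. It stood at 78.2, 103 and 144 TPM in uncultured leaves at 9 days, at 144, 65.3 and 105 TPM at 12 days and at 59.1, 25.6 and 91.8 TPM at 15 days. Cultured leaves held 147, 143 and 235 TPM at 9 days, 194, 114 and 379 TPM at 12 days and 597, 207 and 677 TPM at 15 days. In TPM the groups overlapped at 9 and 12 days and were apart at 15 days, while in CPM they were apart at 9 days as well. The log2 fold change was 0.52 ± 0.46 (adjusted p = 0.555), 0.76 ± 0.46 (adjusted p = 0.277) and 2.87 ± 0.49 (adjusted p = 0.000371) in order of age. JR1 shares 631 bases with JAL34, another jacalin-related lectin gene on the opposite strand, and its expected counts were whole in 1 of 18 libraries. The fractions of JR1 and JAL34 complement to whole numbers too, so reads were split between them. With both genes summed the 15-day value was 2.46 (adjusted p = 0.000444), and JR1 was 3.01 to 108 times JAL34 in TPM.

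CLH1, whose enzyme can remove the phytol tail of chlorophyll, showed the smallest of the changes with culture that were called. It stood at 142, 212 and 169 TPM in uncultured leaves at 9 days, at 233, 141 and 169 TPM at 12 days and at 200, 21.9 and 155 TPM at 15 days. Cultured leaves held 253, 280 and 261 TPM at 9 days, 310, 170 and 325 TPM at 12 days and 406, 311 and 315 TPM at 15 days. Uncultured replicate 2 at 15 days was the lowest of the 18 by a wide margin, and in TPM the groups overlapped at 12 days only, in CPM at 9 days as well. The change with culture on the log2 scale was 0.44 ± 0.48 (adjusted p = 0.656), 0.22 ± 0.48 (adjusted p = 0.790) and 1.33 ± 0.49 (adjusted p = 0.0386) in order of age. The 15-day call was lost without cultured replicate 1, 2 or 3 (adjusted p = 0.111, 0.0686 and 0.0566), without replicate 3 in every group (0.131) and with only the groups compared in the fit (0.174). Without uncultured replicate 2 the 15-day value was 0.85 (adjusted p = 0.0325).

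The order of the genes by TPM shifted with these changes. In uncultured leaves the highest group mean was that of VSP2 at 9 days (312 ± 17.3 TPM, SD, n = 3), CLH1 at 12 days (181 ± 46.9 TPM) and CORI3 at 15 days (216 ± 164 TPM). The next gene down overlapped with it in its libraries at 12 and 15 days. In cultured leaves ARGAH2 led at 9 days (497 ± 71.9 TPM) and CORI3 at 12 days (1907 ± 195 TPM) and 15 days (2500 ± 449 TPM). At 9 days the cultured libraries of ARGAH2 (437 to 577 TPM) overlapped with those of CORI3 (357 to 554 TPM). TAT3 and MYC2 held the lowest 2 places of the 8 in cultured leaves of 12 and 15 days. Ranked over its 6 groups, each gene was highest in cultured 15-day leaves, which for MYC2 overlapped with 4 of the 5 other groups, all but cultured 9-day leaves. For VSP1 no neighbours in that order were apart in their libraries, while for VSP2 cultured 15-day leaves were above cultured 12-day leaves and these above uncultured 9-day leaves. The 8 genes together made up 0.0236% of all TPM in uncultured replicate 2 at 15 days, the lowest library, and 0.856% in cultured replicate 3 at 15 days, the highest.

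VSP1, VSP2, CORI3, ARGAH2 and JR1 have more than 1 annotated transcript, and the length RSEM reports for a gene, weighted by the estimated abundance of its transcripts, moved with culture in 3 of these 5. Averaged over ages, cultured leaves had shorter CORI3 transcripts by -16.6 nucleotides and shorter ARGAH2 transcripts by -10.8 nucleotides (adjusted p = 0.00125 for each over 5 genes), and longer VSP2 transcripts by 7.73 nucleotides (adjusted p = 0.0254). The test was an exact two-sided permutation within ages, with 8000 relabellings. It was run on these 5 genes only, so how often lengths moved over all genes is not known here. VSP1, at -19.3 nucleotides (adjusted p = 0.0581), and JR1, at -20.4 nucleotides (adjusted p = 0.277), missed the threshold. Without replicate 3 the shifts of CORI3 and ARGAH2 were still called (adjusted p = 0.0232 for each) and that of VSP2 was not (adjusted p = 0.185). Without the uncultured replicate 2 libraries of 12 and 15 days VSP1 passed the threshold as well (-20.6 nucleotides, adjusted p = 0.0494).

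For genes with 2 annotated transcripts the length gives the share of each. The longer transcript of ARGAH2 (1469 against 1350 nucleotides) made up 76.4% ± 3.7, 76.9% ± 2.7 and 76.6% ± 3.8 (SD, n = 3) in uncultured leaves of 9, 12 and 15 days and 71.2% ± 1.6, 68.1% ± 3.5 and 63.4% ± 4.4 in cultured leaves. Its cultured libraries were below its uncultured ones at 12 and 15 days and overlapped with them at 9 days, where the highest cultured share was 73.0% and the lowest uncultured share 72.4%. The longer transcript of VSP2 (1508 against 1423 nucleotides) fell before culture from 29.0% ± 2.3 at 9 days to 19.96% ± 4.6 and 17.7% ± 0.28, and cultured leaves held 24.8% ± 5.2, 31.7% ± 0.95 and 37.4% ± 5.0. The longer transcript of VSP1 (1318 against 1094 nucleotides) was at 76.3% ± 13.5 before and 54.3% ± 5.7 after culture at 15 days. These shares come from reads that several transcripts fit, and their estimation error is not given in the deposited tables.

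**Figure D4:**
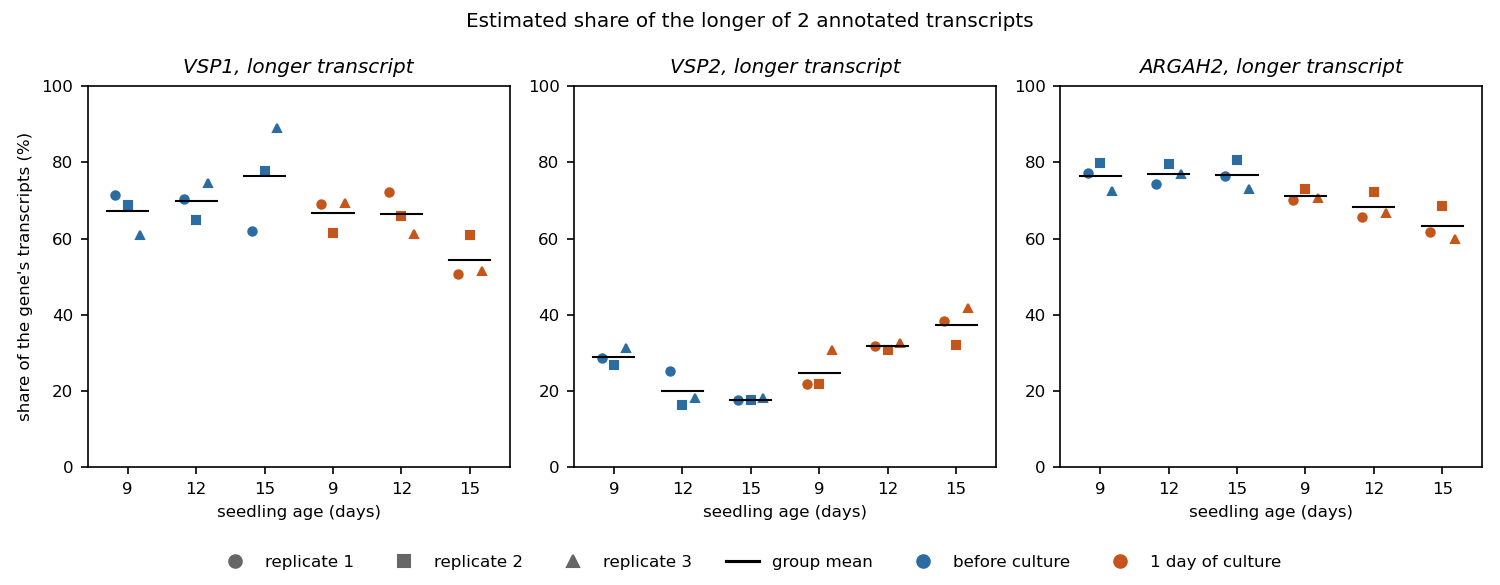
Estimated share of the longer of 2 annotated transcripts in percent (vertical axis, 0 to 100) for VSP1, VSP2 and ARGAH2 in every library by seedling age in days, with colour for culture, symbols for replicates and bars at the group means. The ARGAH2 share goes down with culture, to 63.4% at 15 days, while the VSP2 share goes up at 12 and 15 days, to 37.4%.

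Across the 18 libraries the log2 CPM of 7 of the genes went together, with Pearson r between pairs of 0.427 (TAT3 and CLH1) to 0.955 (VSP1 and VSP2), whereas r with MYC2 was 0.146 to 0.522. The libraries share the steps of culture and age, so these values describe the pattern and carry no test. Of 14901 genes with a mean of at least 5 CPM, the nearest to VSP1 after VSP2 were AT5G14030 and EDA9 (r = 0.940 for both), and the nearest to VSP2 after VSP1 were UGD3 (0.926) and MBP2 (0.915). TAT3 was most like CYP82G1 (0.939), TPS04 (0.928) and NDB2 (0.925). CORI3 was most like AT3G08640 (0.975), AT4G08570 (0.974) and LAP1 (0.968). ARGAH2 was most like MES9 (0.966), TRA2 (0.956) and TSB2 (0.955), and JR1 was most like MVP1 (0.940), AT2G34810 (0.940) and AT4G17430 (0.935). CYP82G1 and TPS04 encode successive enzymes in the making of a volatile homoterpene of damaged leaves, and MBP2 encodes a myrosinase-binding protein. For MYC2 the next genes after AT1G32630 were DOF1 (0.762) and AT4G02410 (0.748). The matches of CLH1 rested on 2 libraries: AT5G67150 went from 0.925 to 0.599, MS2 from 0.923 to 0.726 and PUX4 from 0.921 to 0.765 without the uncultured replicate 2 libraries of 12 and 15 days.

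Among genes that make jasmonate most calls with culture came at 15 days. Of 14 listed synthesis genes 13 were tested, and 1, 1 and 7 were higher at 9, 12 and 15 days with none lower, where 5.82%, 10.4% and 21.1% of all tested genes were higher, also most at 15 days. At 9 days this was AOC1, an allene oxide cyclase gene (2.13 ± 0.41, adjusted p = 0.00413), and at 12 days ACX1, an acyl-CoA oxidase gene (0.80 ± 0.26, adjusted p = 0.0403). At 15 days the largest were AOC3 (3.93 ± 1.02, adjusted p = 0.00651) and the lipoxygenase genes LOX2 (2.21 ± 0.68, adjusted p = 0.0178) and LOX3 (2.102 ± 0.51, adjusted p = 0.00420). The median over the tested genes of the list was 0.67, 0.63 and 0.97 at the 3 ages. Leaving out the uncultured replicate 2 libraries of 12 and 15 days gave 6, 5 and 9 higher, with none lower. The medians were then 0.67, 0.59 and 0.91. The shares of all genes called in that fit are not given here, for this list or those below.

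Genes of jasmonate turnover, whose enzymes modify jasmonate or its derivatives, were also called higher. Of 9 turnover genes 3, 2 and 7 were higher with culture at 9, 12 and 15 days and none was lower, beside the same 5.82%, 10.4% and 21.1% of all. ST2A, a hydroxyjasmonate sulfotransferase gene, was called at each age, at 5.41 ± 0.88 (adjusted p = 0.00138), 5.17 ± 0.82 (0.000491) and 6.64 ± 0.81 (3.25e-05). The jasmonate oxidase genes JOX3 and JOX4 reached 7.65 ± 0.89 and 8.35 ± 1.89 at 15 days. The median of the list was 2.93, 0.61 and 4.15, and in 15 against 9 days after culture 8 of the 9 were higher, where 10.8% of all tested genes were. The culture counts moved when the uncultured replicate 2 libraries of 12 and 15 days were left out. They were then 6, 5 and 9 higher with none lower. Medians in that fit were 2.92, 2.80 and 4.43, so the low value at 12 days was not seen there.

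The repressors and partners of MYC2 moved less evenly. Of 13 JAZ genes 1 was higher at 9 days (JAZ11) and 0 at 12 days, beside 5.82% and 10.4% of all tested genes. At 15 days 5 were higher, with the largest values for JAZ13 (4.32 ± 1.02), JAZ8 (3.60 ± 0.62) and JAZ10 (3.10 ± 0.94). JAZ6 was lower (-0.85 ± 0.33, adjusted p = 0.0499), beside the 21.1% of all tested genes higher and 20.8% lower at that age. At 12 days edgeR called 0 of the JAZ genes, with 1 at an unadjusted p under 0.05. JAZ counts were 4, 1 and 7 higher and 0 lower with the uncultured replicate 2 libraries of 12 and 15 days left out. Of 11 partner genes, among them COI1, MYC3, MYC4 and the adaptor gene NINJA, edgeR called 0 at 9 days, with 2 at an unadjusted p under 0.05. At that age 5.82% of all tested genes were higher and 3.72% lower. BHLH14, of the same factor family as MYC2, was higher at 12 days (3.21 ± 0.60, adjusted p = 0.00172) and 15 days (2.57 ± 0.58, adjusted p = 0.00272). The co-repressor gene TPL (-0.88 ± 0.26) and the Mediator subunit gene MED25 (-0.78 ± 0.27) were lower at 15 days. So 1 of 11 partners was higher at 12 days, beside 10.4% of all tested genes. At 15 days 1 was higher and 2 were lower, beside 21.1% and 20.8%. These counts are near or below the shares over all genes. Leaving out the uncultured replicate 2 libraries of 12 and 15 days gave 1 partner higher at each age and 1 lower, at 15 days.

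Close relatives of the 8 genes were called in both directions. Of 10 listed family members 9 were tested, with 0 higher and 1 lower at 9 days, 1 and 3 at 12 days and 2 and 0 at 15 days. Over all tested genes 5.82% were higher and 3.72% lower at 9 days, 10.4% and 9.33% at 12 days and 21.1% and 20.8% at 15 days, so the 2 of 9 at 15 days are near that share. AT4G29270, an acid phosphatase relative of VSP1 and VSP2, was lower at 9 days (-1.67 ± 0.43, adjusted p = 0.0227) and 12 days (-2.32 ± 0.52, adjusted p = 0.00559). ARGAH1, the other arginase gene, was at 0.60 ± 0.20 at 12 days (adjusted p = 0.0442) and at 0.00 ± 0.20 at 15 days (adjusted p = 0.997). CLH2, the other chlorophyllase gene, was at 1.21, 1.62 and 0.41 with adjusted p of 0.203, 0.0561 and 0.571. The lectin genes JAL31 (3.45 ± 0.73) and JAL30 (1.64 ± 0.37) were higher at 15 days, as JR1 was, and JAL33 (-5.31 ± 0.92) and JAL34 (-1.47 ± 0.46) were lower at 12 days. Family counts also moved when the uncultured replicate 2 libraries of 12 and 15 days were left out. They were then 2 higher and 2 lower at 9 days, 2 and 2 at 12 days and 2 and 0 at 15 days.

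Genes of the other branch of the pathway had the most calls at 9 days. Of 7 ERF-branch genes 5, 3 and 1 were higher with culture at 9, 12 and 15 days and 1 was lower at 15 days, with medians of 3.91, 1.39 and -1.37. Of all tested genes 5.82%, 10.4% and 21.1% were higher, and 20.8% were lower at 15 days. The counts higher were 5, 2 and 1 with the uncultured replicate 2 libraries of 12 and 15 days left out. At 9 days the defensin genes PDF1.2c (7.84 ± 1.35), PDF1.2b (6.27 ± 1.15) and PDF1.2 (6.07 ± 0.89) had the largest values. Of the 8 genes TAT3 (through 1 library), CORI3 and ARGAH2 were called higher at that age too, while VSP1 and VSP2 were not called. These 3 defensin genes are near-identical copies, so reads may be split among them with error. The gene of the factor ORA59 was lower at 15 days (-2.37 ± 0.64, adjusted p = 0.00808). In the difference in response between 15 and 9 days 5 of the 7 were lower, where 9.77% of all tested genes were, with a median of -3.86. VSP1, VSP2 and JR1 were higher there, and the other 5 of the 8 genes were not called. Before culture 6 of the 7 were higher at 15 than at 9 days, a contrast in which 23.2% of all were higher. There VSP1 and VSP2 were lower, and the other 6 of the 8 were not called. After culture 2 of the 7 were higher and 0 lower in 15 against 9 days, with a median of -0.16. In that contrast 10.8% of all tested genes were higher.

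Touch and early stress genes varied between libraries without a call for culture, 0 of 11 in edgeR at each age and 0, 0 and 1 at an unadjusted p under 0.05, with medians of -0.34, -1.03 and -0.68. Over all tested genes 5.82%, 10.4% and 21.1% were higher and 3.72%, 9.33% and 20.8% lower at 9, 12 and 15 days. When the uncultured replicate 2 libraries of 12 and 15 days were left out, the medians were -0.34, -0.49 and 0.21, again with 0 calls. The touch genes' median deviation from the group mean went with that of MYC2 at r = 0.427 and against that of VSP1 (-0.579), ARGAH2 (-0.533) and JR1 (-0.591) over 18 libraries, as a description. Its part in the results on these genes was not tested.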

How the data were processed

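Libraries of polyadenylated RNA came from leaves of Col-0 seedlings of 3 ages, uncultured or cultured for 1 day, with 3 replicates a group. Per the submitters' processing notes, reads were trimmed with Trimmomatic (version not given), aligned with STAR 2.5.3 and quantified with RSEM 1.3.0 on TAIR10. The annotation release and the use of strand are not given in the sources used here. The deposited tables give an expected count per gene, per the file headers, which is an estimate and need not be whole. Per the file headers, the authors also deposited TPM, used here for levels, and FPKM, which were not used. The gene length in the deposited tables is the mean over a gene's transcripts weighted by abundance.

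Here expected counts were rounded, scaled by TMM and filtered with filterByExpr (minimum count 10), which kept 20952 genes. They were tested with edgeR 4.0.16 (limma 3.58.1, R 4.3.3) in 1 quasi-likelihood model with a mean per group, over 12 contrasts, with Benjamini-Hochberg adjustment over all tested genes within each. The common biological coefficient of variation was 0.340, and RLE scaling would move a log2 fold change by at most 0.0272. Library totals of 29664089 to 51126114 left the lowest counts for TAT3 (down to 35) and for VSP1 in uncultured leaves (down to 64), where counting error is larger. Alternatives were DESeq2 1.42.0, RLE, no low-count filter, only the groups compared, a term for replicate 3 (whose labels carry other tags), replicate as a block, leaving out libraries, and summed counts of paralogs or overlapping genes. Loci and sequences are from RefSeq's TAIR10.1, in which 16596 of 16748 single-transcript coding genes (99.1%) had the deposited length to within 0.5 nucleotides. Deviations from group means of same-numbered libraries correlated above 0.1 in all 3 pairs for 3 of 9 comparisons of 2 groups: culture at 9 days (r = 0.233 to 0.409), 15 against 12 days before culture (0.255 to 0.683) and 12 against 9 days after culture (0.213 to 0.583). There the numbers may pair the libraries, from these correlations and not from the labels. The values reported for these comparisons still come from the fit without pairing. Pairing enters only the alternative with replicate as a block. Contrasts that share a group share its libraries. Figures used Python 3.11.15 and matplotlib 3.10.9.

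The 8 genes, the related lists and the comparisons were chosen with earlier results of these data known. All 8 are named in every comparison, with the 3 called genes of each list that changed most in each direction per culture contrast (others of a list with their values) and the 3 genes most like each of the 8 by Pearson r over 18 libraries.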

Additional observations from a re-analysis of the deposited data

Results flagged for a closer look

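VSP1, VSP2 and JR1 are singled out because their response to culture differed between seedling ages in edgeR's test of the difference itself. VSP1 responded by 8.05 ± 1.298 more on the log2 scale at 15 than at 9 days, VSP2 by 6.20 ± 1.01 and JR1 by 2.35 ± 0.65. In uncultured leaves VSP1 averaged 46.3 TPM at 9 days and 3.44 TPM at 15 days, and in cultured leaves 38.1 and 779 TPM, so both the lower start and the higher end at 15 days enter its difference. For VSP2 the same 4 means were 312, 28.3, 205 and 1362 TPM, and for JR1 109, 58.8, 175 and 493 TPM. The differences of VSP1 and VSP2 held in each alternative tried. Groups of 3 libraries are too small for a test of single outlying libraries.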

How the results depend on the processing

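Scaling by RLE and dropping the low-count filter changed no call among the 96 gene and contrast values. DESeq2 added 7 calls and lost 0. Counts of called genes moved by over 1.5 times as follows. For culture at 12 days 3 genes were called, in place of 5, without the uncultured replicate 2 libraries of 12 and 15 days, and 3 with only the groups compared. Before culture, only the groups compared gave 1 for 12 against 9 days and 0 for 15 against 12 days, where DESeq2 gave 2. After culture, 12 against 9 days gave 2 with DESeq2 and 2 with only the groups compared. For the difference in response DESeq2 gave 1 for 12 against 9 days and 3 for 15 against 12 days, where leaving out the replicate 2 libraries gave 2 and a term for replicate 3 gave 2. Over leaving out libraries the counts were 0 to 2 (culture, 9 days), 2 to 4 (culture, 12 days), 0 to 1 (before culture, 12 against 9 days), 0 to 2 (before culture, 15 against 12 days), 0 to 2 (after culture, 12 against 9 days), 2 to 6 (after culture, 15 against 9 days), 0 to 1 (difference, 12 against 9 days) and 0 to 2 (difference, 15 against 12 days). Of 911 such values for single genes, transcript length tests included, 830 kept their outcome, 62 lost a call and 18 gained one. Values that were not called either time count among the 830, so these numbers give no rate of loss among called values. Over all alternatives 52 of 1636 single-gene values changed sign, 51 of them values that were not called as reported, and none was called in the new direction. The called value was TAT3: culture, 9 days, which ranged from -0.0071 without replicate 3, which holds its 1 high library, to 4.83. Other causes were not tested. In the other 6 comparisons of 2 groups the replicate numbers did not pair the libraries by that measure, though all 15 pairs of replicate 3 libraries correlated above 0.1. With replicate as a block 4 calls were gained and 2 lost, and the count for the difference between 15 and 12 days was 1, in place of 0. Depth limits TAT3 before culture, at 0.54 to 3.45 TPM, and VSP1 in uncultured leaves of 15 days, at 2.35 to 4.19 TPM. With 3 libraries a group the SEs were 0.37 to 1.46 on the log2 scale over the 8 genes, so large changes could go uncalled. In the difference between 15 and 12 days VSP1 at 4.14 (adjusted p = 0.0789) and TAT3 at 3.55 (adjusted p = 0.209) were not called in edgeR.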
